A study of Mus musculus with 16 samples.

Results

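This account covers the response to doxycycline (DOX) at passage 4 of a mouse inner medullary collecting duct cell line in which DOX induces the loss of Pkd2. It rests on 8 of the 16 RNA-seq libraries of the study, 4 without DOX and 4 with it, chosen by their passage label. All cells were grown for 10 days on permeable filters, and the treated cells received DOX at 2 ug/mL for 6 days. The sample titles call both groups Pkd2KO cells, whereas the genotype label gives wild type without DOX and a DOX-induced Pkd2 knockout with it. The remaining 8 libraries repeat the design at passage 7 and are used here only where the responses of the passages are compared. No library had DOX without the knockout, so the drug and the loss of Pkd2 cannot be told apart. The promoter that drives the inducible system, the deleted part of Pkd2 and the number of clones are not given in the sources used here.

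Pkd2 encodes polycystin-2, a cation channel found in primary cilia and in endoplasmic reticulum membranes, and mutations in it cause autosomal dominant polycystic kidney disease. The collecting duct is the last segment of the renal tubule, where principal cells reabsorb sodium and water, and it is a main site of cyst growth in that disease. Doxycycline is a tetracycline that switches on engineered promoters, and it also binds mitochondrial ribosomes and slows the synthesis of the proteins encoded by mitochondrial DNA.

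Each library held between 11711992 and 17188295 counts, and levels are given as CPM, each gene's count scaled to the library's normalised total, which compares one gene between libraries but not genes of different length. No label says that replicates came from separate cultures, so p-values measure the spread between these libraries, which may be technical. The libraries fell into a pair with replicates 1 and 2 and a pair with replicates 3 and 4 within each group, a division seen in earlier results of these data and named by no label. The test therefore held a term for the replicate pair, which lowered the biological coefficient of variation from 10.18% to 5.564%. Reads assigned to mitochondrial genes were 1.23 to 1.80% of counts without DOX and 2.00 to 3.00% with DOX. The labelled cell type was checked against 23 principal cell markers. Of these 15 passed the filter on low counts, among them Cdh16, Pax8, Hoxb7, Tfcp2l1 and the sodium channel subunit Scnn1a. The other 8 were below 1 CPM in every library, including the water channels Aqp3 and Aqp4, and the water channel Aqp2, which defines principal cells, was at 0 counts in all 8 libraries. The markers also moved with DOX: 3 of the 15 rose and 6 fell, beside 15.5% rising and 15.4% falling among all tested genes. Their summed level was 5553 to 5758 CPM without DOX and 4577 to 4677 CPM with it.

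Pkd2 (ENSMUSG00000034462, GRCm38 chr5:104459450-104505819, plus strand) was measured first because it checks the labels. Its level was 145, 142, 136 and 139 CPM without DOX and 52.2, 47.8, 53.9 and 58.1 CPM with it. Every library with DOX lay below every library without it, and 37.7% of the mean level remained (log2 fold change -1.41, SE 0.05, adjusted p = 1.2e-12). An exact 2-sided permutation test on the libraries gave p = 0.0286, the smallest that 4 against 4 allow. The fold change was -1.52 in replicates 1 and 2 and -1.30 in replicates 3 and 4. Counts over the whole gene do not show how much of the remaining RNA carries the deletion. Of the 20 genes annotated around Pkd2, an equal number on each side, 7 were tested. Of these 1 rose and 1 fell, beside 15.5% rising and 15.4% falling among all tested genes. Spp1, which encodes the secreted phosphoprotein osteopontin, fell (-0.58), and the guanylate-binding protein gene Gbp8 rose (0.24). Pkd1, which encodes the partner polycystin-1, rose by 0.26 on the log2 scale, although it was 0.17 and not past the threshold in replicates 3 and 4 alone (adjusted p = 0.11). Pkhd1, which encodes fibrocystin, had a log2 fold change of -0.57.

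Of 14704 tested genes, 2278 rose with DOX (15.5%) and 2268 fell (15.4%) at an adjusted p under 0.05, 30.9% in either direction. Most changes were under 2-fold: 163 genes rose (1.11%) and 214 fell (1.46%) at least 2-fold, whereas 828 of the rises and 790 of the falls were under 0.25 on the log2 scale. The 4 libraries with DOX all lay above those without it for 1550 tested genes (10.5%) and all below for 1641 (11.2%), called or not. Without the pair term 1157 genes rose and 1196 fell, and 2348 of those calls were shared in the same direction. The fold changes had the same sign in both pairs for 4543 of the 4546 called genes, but the calls used both pairs, which favours such agreement. Over all tested genes the fold changes of the 2 pairs had a Pearson correlation of 0.67 and a Spearman correlation of 0.57. The median over all tested genes was 0.0045.

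**Figure D1:**
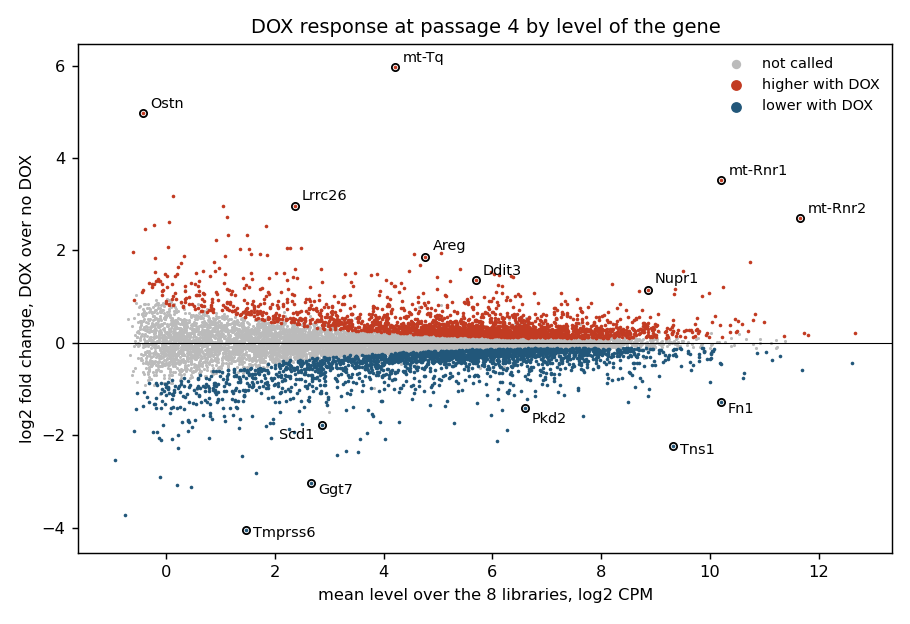
Log2 fold change with DOX at passage 4 (vertical) against the mean level in log2 CPM (horizontal) for 14704 tested genes. Red and blue points passed the test as higher (2278) and lower (2268); named circles mark Pkd2 and other genes, with mt-Tq at the top and Tmprss6 at the bottom.

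Apart from mitochondrial RNAs, the largest rises among genes whose libraries did not overlap and whose higher group averaged 5 CPM or more were in genes of varied function. Lrrc26, which encodes an auxiliary subunit of the BK potassium channel, had 1.08, 2.07, 1.00 and 0.472 CPM without DOX and 9.09, 13.2, 7.61 and 6.59 CPM with it (log2 fold change 2.97, SE 0.22, adjusted p = 1.2e-08). That its libraries did not overlap was a condition of this ranking. Tenm4 (2.54), a teneurin cell-adhesion gene, Shank1 (2.06), a scaffold gene, and Cyp4b1 (2.05), a cytochrome P450 gene, also rose at least 4-fold. Krt4 and Tns4, described with their lists, rose by similar amounts but averaged under 5 CPM with DOX. Areg, which encodes the EGF receptor ligand amphiregulin, had 9.78, 8.49, 14.1 and 13.8 CPM without DOX and 27.3, 24.6, 62.0 and 57.6 CPM with it. Its rise was 1.51 in replicates 1 and 2 and 2.10 in replicates 3 and 4 (difference 0.59, SE 0.16, adjusted p = 0.048), so the libraries with DOX were all higher but not alike. Ostn, which encodes the secreted peptide osteocrin, was the sole called protein-coding or mitochondrial gene with a mean over 1 CPM with DOX and at most 3 counts in every library without it. Its levels were 0.0829, 0.00, 0.00 and 0.0787 CPM without DOX and 1.09, 1.12, 2.16 and 1.46 CPM with it.

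By the same measure the largest fall was in Tmprss6, a transmembrane serine protease that lowers hepcidin in the liver. It had 6.88, 5.24, 4.61 and 4.17 CPM without DOX and 0.233, 0.529, 0.259 and 0.163 CPM with it (log2 fold change -4.04, SE 0.27, adjusted p = 1.5e-09). Ggt7, a gamma-glutamyl transferase family gene, followed with 9.86, 8.27, 11.7 and 15.6 CPM without DOX and 1.16, 0.999, 1.47 and 1.87 CPM with it (log2 fold change -3.04, SE 0.17, adjusted p = 1.4e-10). Both were several-fold lower in every library with DOX. A pair of calcium-linked genes fell strongly: Ncald, which encodes the sensor neurocalcin delta (-2.81), and Rcan2, which encodes a calcineurin regulator (-2.42). Tns1, which encodes tensin 1, a link between integrins and actin, had 992, 971, 1089.6 and 1156 CPM without DOX and 209, 289, 197 and 199 CPM with it. Dcdc2a, a doublecortin-domain gene of the ciliary axoneme, had 126, 121, 93.7 and 102 CPM without DOX and 23.7, 29.6, 25.9 and 22.4 CPM with it (log2 fold change -2.12, SE 0.07, adjusted p = 1.2e-12). No library with DOX overlapped the libraries without it for either gene, as the ranking required. Other falls of this size were Clca3b (-2.36), Scube3 (-2.34), Fstl1 (-2.07), Eya4 (-2.06) and Nlrp10 (-2.07).

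**Figure D2:**
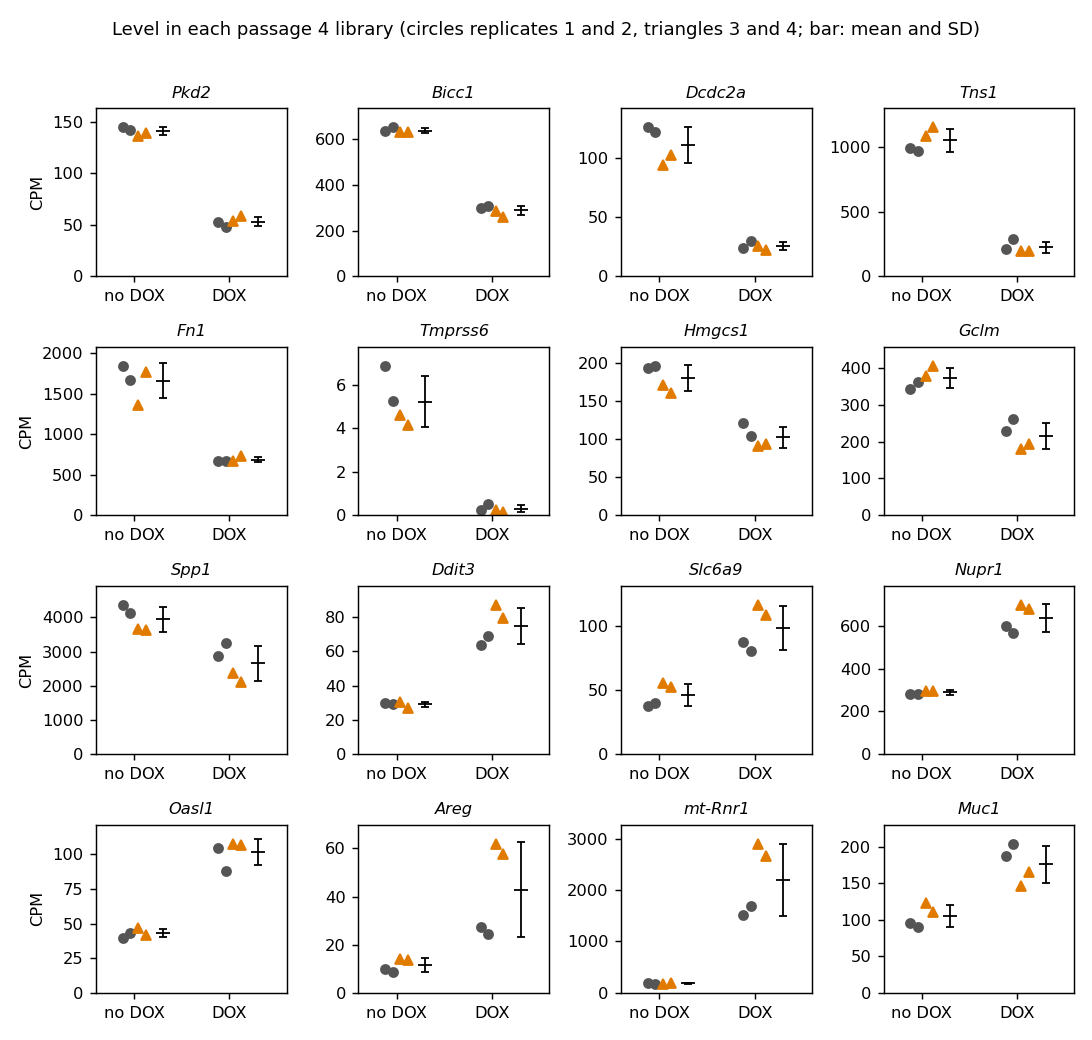
CPM of 16 genes in each passage 4 library (vertical axes from 0), without and with DOX; circles are replicates 1 and 2, triangles replicates 3 and 4, bars the mean and SD of 4 libraries. Pkd2, Dcdc2a, Tns1 and Tmprss6 are lower in all 4 libraries with DOX, and mt-Rnr1 is higher, most so in replicates 3 and 4.

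Among abundant genes, ranked by the difference of mean CPM, the fibronectin gene Fn1 fell (-1.28), with 1662 ± 214 CPM without DOX and 684 ± 29.6 CPM with it (SD, n = 4 each). The keratins of simple epithelia fell, Krt8 (-0.66) and Krt18 (-0.44), as did the urokinase gene Plau (-0.76), the thrombospondin gene Thbs1 (-0.84) and the nonmuscle myosin gene Myh9 (-0.37). Msln, which encodes mesothelin, rose (1.08), as did the semaphorin gene Sema3c (1.02). The translation elongation factor genes Eef1a1 (0.21) and Eef2 (0.20) rose by small amounts.

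RNAs encoded by mitochondrial DNA rose unevenly. The ribosomal RNA mt-Rnr1 (12S) had 194, 176, 179.7 and 184 CPM without DOX and 1504, 1686, 2901 and 2665 CPM with it (log2 fold change 3.52, SE 0.20, adjusted p = 9.1e-05). The ribosomal RNA mt-Rnr2 (16S) had 786, 717, 886 and 968 CPM without DOX and 3922, 4232, 7356 and 7078 CPM with it (log2 fold change 2.70, SE 0.11, adjusted p = 4.1e-07). Libraries were made after poly(A) selection, so these levels are of the ribosomal RNA that such a selection kept. Among all tested genes 15.5% rose and 15.4% fell. Of the 13 protein genes of mitochondrial DNA, 7 were tested: 5 rose, mt-Co1 fell (-0.43) and mt-Cytb had -0.00038, not past the threshold. The complex I subunit genes rose by different amounts: mt-Nd2 (1.74), mt-Nd4 (1.22), mt-Nd6 (1.17), mt-Nd5 (0.63) and mt-Nd1 (0.50). Of 22 transfer RNA genes 6 were tested and 5 rose, led by mt-Tq at 0.249, 0.812, 0.602 and 0.629 CPM without DOX and 17.4, 25.3, 54.0 and 49.9 CPM with it (log2 fold change 5.97, SE 0.22, adjusted p = 1.5e-10), while mt-Ts1 had -0.34, not past the threshold with no-DOX replicate 1, no-DOX replicate 4, DOX replicate 1, DOX replicate 2 or DOX replicate 3 left out (adjusted p = 0.056 to 0.11). Without the pair term, 3 of the protein genes rose in place of 5 and mt-Ts1 did not pass. All 6 tested transfer RNA genes lie opposite the strand that holds the ribosomal RNA and most protein genes. The library kit marks strand, but how strand was treated in counting is not stated in the labels, so these RNAs and transcripts of the opposite strand cannot be told apart here. Several mitochondrial genes, such as mt-Co2 and mt-Co3, were below 1 CPM in all libraries, and genes with near-identical nuclear copies are uncertain.

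Nuclear genes for mitochondrial function moved less. Of 18 mitochondrial chaperone and protease genes 8 rose and 0 fell, including the protease gene Lonp1 (0.78) and the mitochondrial Hsp70 gene Hspa9 (0.53); without the pair term 4 rose. Factors for mitochondrial RNA synthesis, processing and translation gave 5 rising and 0 falling of 29, a share of rises close to the 15.5% of all tested genes. The risers included the transcription factors of mitochondrial DNA Tfam (0.32) and Tfb2m (0.31), and 3 members rose without the pair term. Of 36 nuclear complex I subunit genes 4 rose and 1 fell, below the share among all tested genes.

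ATF4 is a transcription factor of the integrated stress response that raises amino acid transport and synthesis genes. Of its 35 tested targets, 31 rose and 2 fell, with a median log2 fold change of 0.53. Among all tested genes 15.5% rose and 15.4% fell. The stress factor gene Ddit3 (CHOP) had 29.8, 29.2, 30.2 and 26.7 CPM without DOX and 63.6, 68.7, 87.2 and 79.4 CPM with it (log2 fold change 1.36, SE 0.07, adjusted p = 4.6e-10). Nupr1, a stress-induced chromatin protein gene, had 280.2, 281, 297 and 297 CPM without DOX and 602, 568, 701 and 683 CPM with it (log2 fold change 1.14, SE 0.04, adjusted p = 1.2e-12). The glycine transporter gene Slc6a9 (1.09), the mitochondrial serine hydroxymethyltransferase gene Shmt2 (0.90) and the transcription factor gene Atf5 (0.86) also rose. The members that fell were Cbs, which encodes cystathionine beta-synthase (-0.71), and the cytokine gene Gdf15 (-0.15), not past the threshold with DOX replicate 4 left out (adjusted p = 0.067). The list's median was 0.38 in replicates 1 and 2 and 0.65 in replicates 3 and 4. Of 20 cytosolic aminoacyl-tRNA synthetase genes, which charge transfer RNAs, 11 rose and 2 fell, led by Wars (1.12), Sars (0.55) and Eprs (0.41); without the pair term 7 rose and 0 fell. Chaperones and sensors of the endoplasmic reticulum were mixed, 6 rising and 8 falling of 23: Herpud1, a degradation gene, rose (0.54) and the calreticulin gene Calr fell (-0.23).

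The promoters of the list members were searched for the C/EBP-ATF response element TGATGNAAN on both strands, from 250 bases before to 50 after the RefSeq start. It was present in 8 of 30 list promoters (26.67%) and in 4.496% of the 27025 genes with a promoter. Of the 28 called members with a promoter 6 held it. With 28 of the 30 called, the list cannot show whether the element marks called genes. The 250 upstream bases of Nupr1 and of the cystine transporter gene Slc7a11 (0.68) are shown from RefSeq GRCm38.p6, 5′ to 3′ on the gene's strand, with matches in capitals, because both genes rose and hold the element. A match is a description of the letters and no evidence of binding. Nupr1 (chr7:126625471-126625720, minus strand) holds 1 match and Slc7a11 (chr3:50443614-50443863, minus strand) holds 2.
Nupr1: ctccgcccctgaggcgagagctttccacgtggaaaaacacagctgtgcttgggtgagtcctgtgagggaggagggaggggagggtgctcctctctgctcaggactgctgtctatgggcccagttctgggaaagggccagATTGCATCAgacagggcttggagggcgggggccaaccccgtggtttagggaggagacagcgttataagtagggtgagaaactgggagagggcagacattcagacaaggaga
Slc7a11: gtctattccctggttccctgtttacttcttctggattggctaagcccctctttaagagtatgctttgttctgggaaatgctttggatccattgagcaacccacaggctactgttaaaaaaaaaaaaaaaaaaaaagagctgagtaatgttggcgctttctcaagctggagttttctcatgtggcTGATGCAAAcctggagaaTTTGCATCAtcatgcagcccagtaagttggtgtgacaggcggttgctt

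Cholesterol synthesis and uptake genes, the targets of the sterol-regulated transcription factor SREBP2, fell together. Of 25 tested members 23 fell and 0 rose, with a median of -0.57, beside 15.4% falling and 15.5% rising among all tested genes. Hmgcs1, which encodes the cytosolic HMG-CoA synthase, had 193, 196, 171 and 160.4 CPM without DOX and 121, 104, 90.7 and 93.3 CPM with it (log2 fold change -0.82, SE 0.05, adjusted p = 3e-10). Every library with DOX lay below those without it. The squalene epoxidase gene Sqle (-0.70) and the feedback gene Insig1 (-0.96), whose product helps to hold SREBP2 in the endoplasmic reticulum, also fell. The libraries were apart for most of these members: 22 of 25 had all libraries with DOX below the others, beside 11.2% of all tested genes. Of 17 fatty acid synthesis genes 4 rose and 11 fell, with the desaturase gene Scd1 at -1.77 and the elongase gene Elovl6 at -0.55. Fatty acid oxidation genes gave 3 rising and 4 falling of 19, a share of rises close to that of all tested genes. The sterol regulatory element, searched on both strands as a single consensus, was found in 0 of the 17 cholesterol list promoters that could be read, and in 0.8326% of all genes with a promoter.

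Genes of the oxidant response driven by NRF2 mostly fell, 13 of 23 with 3 rising, beside 15.4% falling and 15.5% rising among all tested genes. Gclm, the regulatory subunit of the enzyme that starts glutathione synthesis, had 341, 361, 379 and 405 CPM without DOX and 227, 259.9, 181 and 193 CPM with it. Its response was -0.53 in replicates 1 and 2 and -1.07 in replicates 3 and 4 (difference -0.54, SE 0.09, adjusted p = 0.0019). The heme oxygenase gene Hmox1 (-0.64) and the pentose phosphate gene Pgd (-0.32) also fell. The antioxidant element TGACNNNGC, searched on both strands, was in 8 of 18 list promoters (44.44%) and 13.99% of all. Of the 12 called members with a promoter 6 held it. The upstream 250 bases of Gclm (chr3:122245307-122245556, plus strand) are shown with the match in capitals because Gclm was the list's largest fall among promoters holding the element.
Gclm: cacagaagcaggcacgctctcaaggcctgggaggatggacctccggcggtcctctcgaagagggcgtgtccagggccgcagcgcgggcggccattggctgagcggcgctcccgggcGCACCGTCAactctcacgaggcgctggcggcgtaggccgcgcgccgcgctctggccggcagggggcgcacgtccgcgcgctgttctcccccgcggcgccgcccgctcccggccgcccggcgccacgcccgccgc

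Metallothioneins, which bind zinc and copper, rose, Mt1 (0.96) and Mt2 (0.94). Their metal list had 4 rising and 6 falling of 13, beside 15.5% rising and 15.4% falling among all tested genes. Members that fell included the iron-regulating ligand gene Bmp6 (-1.17) and the transferrin receptor gene Tfrc (-0.40).

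**Figure D3:**
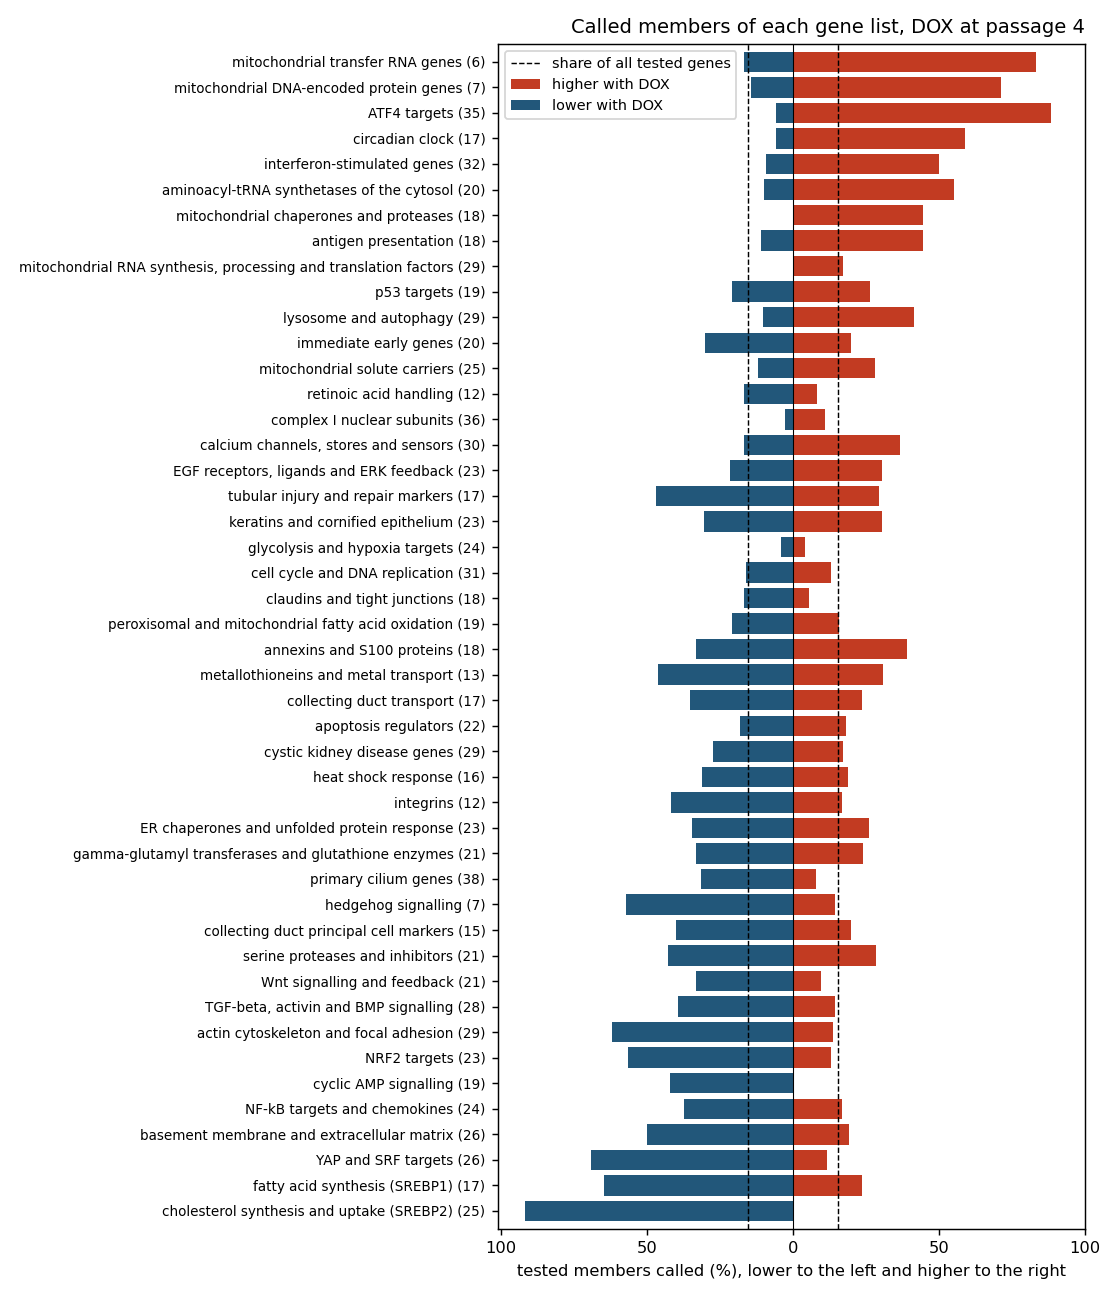
Share of the tested members that passed the test in each gene list with at least 5 tested members, lower to the left in blue and higher to the right in red, ordered by the median fold change, with the number tested in brackets. Dashed lines mark 15.5% higher and 15.4% lower among all tested genes; ATF4 targets reach furthest right and the cholesterol list furthest left.

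Cytoskeletal and matrix genes fell more often than they rose, whereas 15.5% of all tested genes rose and 15.4% fell. Targets of YAP and SRF, regulators that respond to tension, gave 3 rising and 18 falling of 26, among them the kinase gene Nuak2 (-1.12), Filip1l (-1.04) and the tissue factor gene F3 (-0.78). Igfbp3, an IGF-binding protein gene (0.83), Tagln, which encodes transgelin (0.51), and the phosphatase gene Ptpn14 (0.43) rose, but Tagln was not past the threshold in either replicate pair alone (adjusted p = 0.11 and 0.08). Actin and focal adhesion genes gave 4 rising and 18 falling of 29, and within the tensin family Tns1 and Tns3 (-0.64) fell whereas Tns4 rose (2.32). Of 26 matrix genes 5 rose and 13 fell: the type IV collagen chains Col4a2 (-1.94) and Col4a1 (-1.70) and tenascin C gene Tnc (-1.72) were lower. Laminin chain genes were among those that rose, Lama3 (0.72), Lama5 (0.51), Lamc1 (0.37) and Lamb3 (0.15), with Lamb3 not past the threshold with no-DOX replicate 1 or DOX replicate 1 left out (adjusted p = 0.054 to 0.062).

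Genes of TGF-beta, activin and BMP signalling gave 4 rising and 11 falling of 28, beside 15.5% rising and 15.4% falling among all tested genes. The share of rises was thus close to that of all genes. The extracellular inhibitor genes Fstl1 (-2.07) and Fst (-1.89) fell and the decoy receptor gene Bambi rose (1.45), as did the ligand gene Bmp7 (0.51). Wnt pathway genes gave 2 rising and 7 falling of 21 (3 falling without the pair term), with the ligand Wnt5a (-1.17) and the receptor Fzd2 (-1.14) lower and the ligand Wnt10a higher (1.00). Among EGF receptor genes and ligands 7 rose and 5 fell of 23: the ligands Areg and Ereg (1.04) rose, while the receptor Egfr fell (-0.55). Serine proteases and their inhibitors gave 6 rising and 9 falling of 21, with the protease gene Htra1 higher (1.10).

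Of 29 tested cystic kidney disease genes 5 rose and 8 fell, the targeted gene Pkd2 being 1 of the 8. The share of rises was close to the 15.5% of all tested genes, of which 15.4% fell. Bicc1, an RNA-binding protein gene whose loss gives cysts in mice, had 635, 653, 632 and 629.5 CPM without DOX and 299.7, 309, 284 and 261 CPM with it (log2 fold change -1.15, SE 0.04, adjusted p = 1.2e-12). The transcription factor gene Glis3 fell (-0.76), whereas Glis2 rose (1.07). Muc1, which encodes a membrane mucin, had a response of 1.08 in replicates 1 and 2 and 0.41 in replicates 3 and 4 (difference -0.67, SE 0.10, adjusted p = 0.0007). Primary cilium genes gave 3 rising and 12 falling of 38, led by Dcdc2a and the BBSome subunits Bbs9 (-0.62) and Ttc8 (-0.40). Of 7 hedgehog genes, which signal through the cilium, 1 rose, the ciliary receptor gene Gpr161 (0.23), and 4 fell, including the transcription factor gene Gli3 (-0.74).

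Calcium genes gave 11 rising and 5 falling of 30, beside 15.5% rising and 15.4% falling among all tested genes. The calcium pump genes of the endoplasmic reticulum Atp2a3 (1.91) and Atp2a2 (0.36), the inositol trisphosphate receptor gene Itpr2 (0.46) and the mitochondrial uniporter gene Mcu (0.39) rose, and the channel gene Trpc1 fell (-0.40). Cyclic AMP genes gave 0 rising and 8 falling of 19 (3 without the pair term), among them the phosphodiesterase genes Pde8a (-0.77) and Pde4b (-0.55), the prostaglandin receptor gene Ptger4 (-0.58) and the catalytic kinase subunit gene Prkaca (-0.27). Of 17 collecting duct transport genes 4 rose and 6 fell: the chloride channel gene Cftr (-1.27) and the sodium channel subunit gene Scnn1g (-1.03) were lower, and Scnn1a was higher (0.42), though not past the threshold with no-DOX replicate 2 left out (adjusted p = 0.052).

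Interferon-stimulated genes, which respond to viral RNA and cytokines, gave 16 rising and 3 falling of 32, and 9 rising without the pair term. Over all tested genes 15.5% rose and 15.4% fell with the pair term. The oligoadenylate synthetase family genes Oasl1 (1.24), Oasl2 (0.68) and Oas1a (0.33) rose, while Ifit3 (-0.83) and Ifit2 (-0.44) fell. Oasl1 had 39.8, 43.3, 47.1 and 42.1 CPM without DOX and 105, 87.7, 108 and 107 CPM with it. Class I antigen presentation genes gave 8 rising and 2 falling of 18 (3 rising without the pair term), with the class I gene H2-T23 at 0.66; near-identical copies make single genes of that family uncertain. NF-kB targets and chemokines gave 4 rising and 9 falling of 24, a share of rises close to that of all tested genes. The neutrophil chemokine gene Cxcl5 (-1.39), the adhesion gene Icam1 (-0.81) and the complement gene C3 (-0.71) were lower. Leukocyte markers moved with DOX as well: 3 of 14 were tested and all fell, Ptprc (-1.68), Cd68 (-0.76) and Csf1r (-0.63), with Csf1r not past the threshold with DOX replicate 3 left out (adjusted p = 0.056). The summed level of the list was 39.4 to 47.1 CPM without DOX and 20.6 to 36.0 CPM with it, and 7 defining markers, including Adgre1, Itgam and Tyrobp, were at 0 in all libraries. The part of other cells in these results was not tested.

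Of 17 clock genes 10 rose and 1 fell (6 rose without the pair term), beside 15.5% rising and 15.4% falling among all tested genes. The rises included the feedback repressors Nr1d1 (1.19), Ciart (1.02), Nr1d2 (0.54) and Per1 (0.41). Lysosome and autophagy genes gave 12 rising and 3 falling of 29, among them the master regulator Tfeb (0.56) and the hexosaminidase gene Hexa (0.47). Injury markers of the tubule moved both ways, 5 rising and 8 falling of 17: the kidney injury gene Havcr1 (-1.49) fell and the lipocalin gene Lcn2 rose (0.38). Keratins and cornified epithelium genes gave 7 rising and 7 falling of 23, with Krt4 (2.33), Cdsn (1.94) and Krt20 (1.06) higher. Beside the 30.9% called among all tested genes, 9 of 31 cell cycle genes, 4 of 18 tight junction genes and 2 of 24 glycolysis and hypoxia genes were called in either direction. Of the last, the glucose transporter gene Slc2a1 fell (-0.76).

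The size of the DOX response differed between the replicate pairs for 291 genes (1.98% of 14704), more positive in replicates 3 and 4 for 109 and less for 182. The mitochondrial ribosomal RNAs were among them, with mt-Rnr1 at 3.11 in replicates 1 and 2 and 3.93 in replicates 3 and 4 (difference 0.83, SE 0.09, adjusted p = 2.6e-05). The kinesin gene Kif12 had 1.44 in replicates 1 and 2 and 0.23 in replicates 3 and 4 (difference -1.21, SE 0.14, adjusted p = 2.6e-05). Selenop, which encodes the selenium carrier selenoprotein P, had -0.69 in replicates 1 and 2 and -1.46 in replicates 3 and 4 (difference -0.77, SE 0.10, adjusted p = 0.00015). The count depended on single libraries: it was 785 without DOX replicate 1, 32 without no-DOX replicate 1, 37 without no-DOX replicate 3 and 45 without DOX replicate 3. It was 60 and 118 without no-DOX replicates 2 and 4, and 166 and 240 without DOX replicates 2 and 4.

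**Figure D4:**
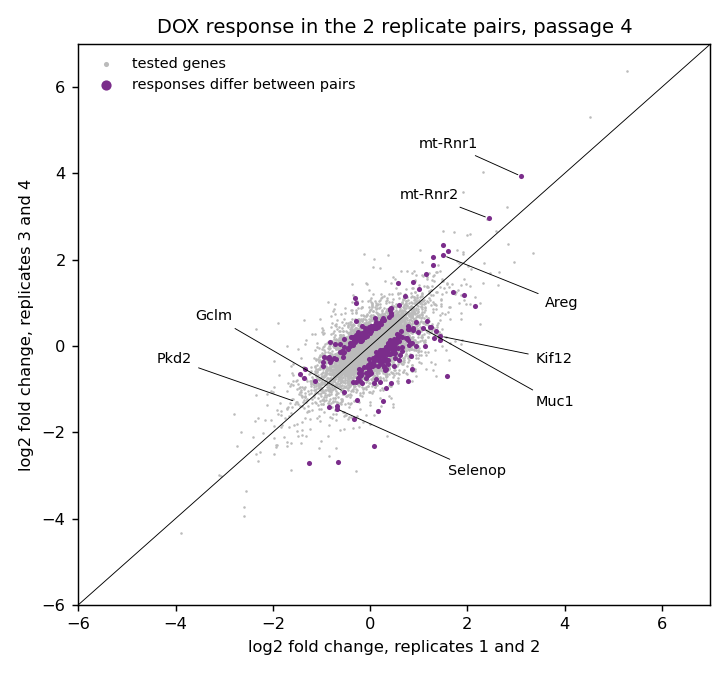
Log2 fold change with DOX in replicates 1 and 2 (horizontal) against replicates 3 and 4 (vertical) for the tested genes, with the line of equality. Purple points are the 291 genes whose responses differed between pairs; mt-Rnr1, mt-Rnr2 and Areg lie above the line and Kif12, Muc1, Selenop and Gclm below it.

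Responses at passage 4 were compared with those at passage 7 in a fit of all 16 libraries, where 821 of 15316 genes differed (5.36%), and 183 without the pair term. Of the 2278 genes that rose at passage 4, 1275 also rose at passage 7. Of the 2268 that fell 1446 also fell, whereas 65 genes were called in opposite directions. Shares of all tested genes called at passage 7 are not reported here. The counts at passage 7, also those of the lists below, therefore have no such share beside them. Interferon-stimulated genes differed for 12 of 32 members, in each case with the higher response at passage 4. Of the 16 that rose at passage 4, 1 rose at passage 7. Ifit3 changed by -0.84 at passage 4 and -1.77 at passage 7 (difference 0.94, SE 0.18, adjusted p = 0.011). ATF4 targets differed for 18 of 35, in each case with the lower response at passage 4. All 31 that rose at passage 4 also rose at passage 7. Ddit3 changed by 1.36 at passage 4 and 1.81 at passage 7 (difference -0.45, SE 0.13, adjusted p = 0.049). The type IV collagen gene Col4a2 changed by -1.95 at passage 4 and -0.74 at passage 7 (difference -1.21, SE 0.20, adjusted p = 0.00043), and Fn1 by -1.28 at passage 4 and -0.46 at passage 7 (difference -0.82, SE 0.12, adjusted p = 0.00035). The chondroitin synthase subunit gene Chpf changed by 1.43 at passage 4 and 0.57 at passage 7 (difference 0.87, SE 0.09, adjusted p = 6.3e-07), and the glucose transporter gene Slc2a1 by -0.76 at passage 4 and -0.23 at passage 7 (difference -0.53, SE 0.07, adjusted p = 3.2e-05).

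**Figure D5:**
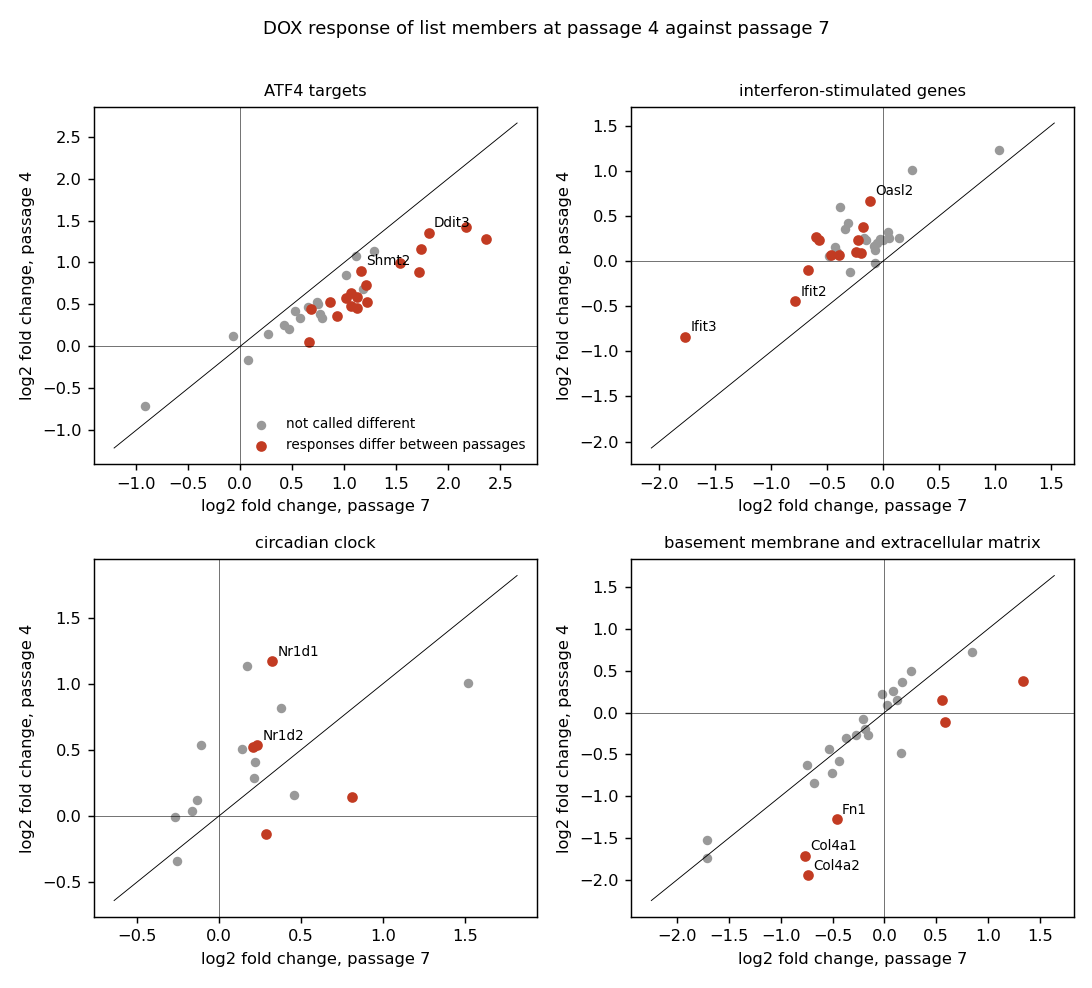
Log2 fold change with DOX at passage 7 (horizontal) and passage 4 (vertical) for tested members of 4 gene lists, with the line of equality. Red points are genes whose responses differed between passages: ATF4 targets lie below the line (18 of 35) and interferon-stimulated genes above it (12 of 32).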

How the data were processed

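Poly(A)-selected RNA was sequenced as paired reads (2 x 75 bases) from a directional kit and aligned with STAR 2.6.0c to GRCm38.p6, per the labels' protocols. The authors deposited whole-number counts per Ensembl gene; the labels name no counting tool or strand setting. The authors also deposited TPM values, which were not used for results: compared over 9922 genes, 12 of its 16 column headers name a different sample than the count table does for the same library. Groups follow the count headers, so the fall of Pkd2 is a check of them only in part. Gene names come from GENCODE M21, which matched all 55536 identifiers.

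Counts were filtered with filterByExpr, scaled by TMM and tested with edgeR 4.0.16 (robust quasi-likelihood, R 4.3.3) with terms for replicate pair and DOX over 8 libraries, with Benjamini-Hochberg adjustment. Standard errors are the log2 fold change over the square root of F. The difference between pairs was an interaction term, and that between passages a contrast in all 16 libraries. Alternatives were no pair term, a replicate block, all 16 libraries, DESeq2 1.42.0, RLE scaling, other filters, each pair alone and each library left out. The code was tested on simulated data. Gene lists, pairs and members were chosen with earlier results of these data known. Named genes were the 15 largest changes in each direction without overlap and at least 5 CPM, the 10 largest differences of CPM, the 5 smallest p for each difference test and each list, and Pkd2, its neighbours, Pkd1 and Pkhd1; genes near 0 in the lower group were also named. Some genes that this rule covers are not reported here.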

Additional observations from a re-analysis of the deposited data

Results flagged for a closer look

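Within-group spread was examined for 143 named genes in both groups of 4 libraries. In 9 of 286 gene and group combinations 1 library stood apart from the other 3, with a gap, as a share of the group's range, above Dixon's critical value. These were, with that share, Shank1 with DOX (0.86), Tns1 with DOX (0.871), Eya4 without DOX (0.887), Fn1 with DOX (0.944), Tfam with DOX (0.862), Hmox1 without DOX (0.874), Oasl1 with DOX (0.858), Nr1d1 with DOX (0.945) and Nr1d2 with DOX (0.831). For 4 interchangeable libraries chance gives about 1 in 20 groups; these libraries fell into pairs, so that rate may not hold here.

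The DOX response differed between the replicate pairs by a test of the difference for the following named genes, given as the log2 response in replicates 3 and 4 minus that in replicates 1 and 2. It was more positive in replicates 3 and 4 for Areg (0.59), mt-Rnr1 (0.83), mt-Rnr2 (0.52), mt-Nd6 (0.31), Lonp1 (0.35), Hspa9 (0.28), Ereg (0.88) and Cdsn (0.60). It was less positive for Gclm (-0.54), Muc1 (-0.67), Scnn1a (-0.45), Kif12 (-1.21) and Selenop (-0.77).

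The DOX response differed between passages by the interaction test for other named genes, given as the log2 response at passage 4 minus that at passage 7. It was more positive at passage 4 for Spp1 (0.69), Lrrc26 (1.31), Plau (0.27), Msln (0.33), Sema3c (0.68), mt-Nd4 (0.33), Mt1 (0.52), Ptpn14 (0.58), Tns4 (2.39), Fst (0.68), Bambi (1.63), Glis2 (0.60), Gpr161 (0.25), Oasl2 (0.79), Ifit3 (0.94), Ifit2 (0.34), H2-T23 (0.34), Cxcl5 (1.56), Nr1d1 (0.85), Nr1d2 (0.30), Havcr1 (1.03), Krt4 (1.53), Krt20 (0.66), Kif12 (1.74) and Chpf (0.87). It was less positive for Dcdc2a (-0.68), Scube3 (-0.75), Fstl1 (-1.20), Fn1 (-0.82), Krt8 (-0.31), Lonp1 (-0.46), Hspa9 (-0.43), Ddit3 (-0.45), Shmt2 (-0.26), Eprs (-0.44), Sqle (-0.46), Hmox1 (-0.61), Nuak2 (-0.42), Col4a2 (-1.21), Col4a1 (-0.94), Fzd2 (-0.73), Htra1 (-0.82), Lcn2 (-0.34), Cdsn (-1.94) and Slc2a1 (-0.53).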

How the results depend on the processing

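Of 141 named genes past the threshold, 118 passed it under every alternative in which they were tested, and none changed direction. Genes of low level, such as Lrrc26 and Tmprss6, were not tested at a mean of at least 10 CPM. Without the pair term 16 were lost (Gbp8, mt-Nd5, mt-Nd1, mt-Ts1, Tfb2m, Gdf15, Mt2, Tfrc, Lamb3, Pde8a, Pde4b, Scnn1g, Scnn1a, Ifit2, Per1 and Lcn2), 10 with replicates 1 and 2 only (Gbp8, mt-Ts1, Gdf15, Tagln, Wnt10a, Pde8a, Pde4b, Scnn1g, Ifit3 and Csf1r), 7 with replicates 3 and 4 only (Pkd1, mt-Ts1, Tfb2m, Tagln, Lamb3, Bambi and Gpr161), and 3 in the fit of all 16 libraries (Gbp8, mt-Ts1 and Gdf15). Genes higher and lower numbered 1157 and 1196 without the pair term, 1901 and 1804 with DESeq2, and 1875 to 2170 and 1865 to 2156 when 1 library was left out. At least 2-fold changes depended on the filter on low counts: 260 rises and 334 falls with no filter beyond 1 count, and 55 and 55 at a mean of at least 10 CPM. Differences between pairs numbered 539 with no filter and 32 to 785 when 1 library was left out. Differences between passages numbered 183 without the pair term. Of 104 list counts (rises and falls of each list), 42 moved clearly without the pair term, so list counts given without such a value may depend on it too. Pkd2 stayed between -1.52 and -1.30. The causes were not tested. mt-Cytb, near 0, changed sign: 0.0021 in the fit of 16 libraries, 0.0013 with DESeq2 and with RLE scaling, 0.13 with replicates 1 and 2 only, and -0.060 to 0.063 when 1 library was left out.

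With the replicate number as a block, 2104 genes rose and 2098 fell, and 715 differed between passages. Same-numbered libraries deviated together (correlations of 0.31 to 0.44), but libraries of the same pair did so too. Of the 141 named genes the block changed no call, but many of these were chosen for large changes or small p. Of all 4546 calls, 4142 were shared in the same direction with the block and 3664 with DESeq2. With replicates 1 and 2 only 2923 were shared, and with replicates 3 and 4 only 2949.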
